A study of Homo sapiens with 3 samples.

Results

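The list described here holds every peak that the authors called for the POLR2A precipitation against the input, 14027 genomic positions of the 25592 in the 2 peak lists of the series, each with the transcript whose start site lay nearest to the peak centre. POLR2A is the catalytic, largest subunit of RNA polymerase II, the enzyme that transcribes protein-coding genes and many noncoding RNA genes. The experiment was a chromatin immunoprecipitation with sequencing in A2780, a line labelled as serous ovarian cancer. The POLR2A library was made with an anti-POLR2A antibody, which the submitters call a positive control, and the input was made from 10% of the genomic DNA. Both came from cells described as carrying Flag-USP39, a tagged spliceosomal protein whose own precipitation is the remaining library. There was 1 library per group, so no value has a replicate error, no test was made, and every count or median describes these peaks only. Tags, fold enrichments and p-values are the authors' own values for each peak, and positions are on hg19 unless another build is named.

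RNA polymerase II is recruited to core promoters, which can carry a TATA box just before the start site, and in human cells it commonly accumulates a short way downstream of the start before it enters the gene body. Its occupancy is therefore usually highest near start sites and lower, though present, along transcribed genes. Genes of small nuclear RNAs and of replication-dependent histones are short, and polymerase can cover them from end to end.

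The 250 bases before the start are given for 6 genes with a promoter peak, as RefSeq has them in GRCh38.p14. They were chosen after the values were seen, to show core promoters with TATAAA (HIST1H1D, HIST1H4J, MAT2A) and without it (POLR2A, EIF4A1, SPRY2). Capitals mark matches to the TATA spellings, the CCAAT box and the GC box described with the motif counts, on either strand, and sequences read 5′ to 3′ in the direction of the gene.
HIST1H1D (chr6:26234988-26235237, minus strand): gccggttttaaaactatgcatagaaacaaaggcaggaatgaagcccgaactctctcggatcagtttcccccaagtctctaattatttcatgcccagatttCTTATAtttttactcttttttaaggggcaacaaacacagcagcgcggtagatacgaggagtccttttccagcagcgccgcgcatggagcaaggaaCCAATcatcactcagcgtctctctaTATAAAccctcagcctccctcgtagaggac
HIST1H4J (chr6:27823842-27824091, plus strand): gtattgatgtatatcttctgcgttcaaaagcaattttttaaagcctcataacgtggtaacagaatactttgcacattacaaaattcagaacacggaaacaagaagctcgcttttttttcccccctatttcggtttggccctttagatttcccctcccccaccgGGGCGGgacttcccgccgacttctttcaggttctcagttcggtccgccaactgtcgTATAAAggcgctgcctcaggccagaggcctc
MAT2A (chr2:85538918-85539167, plus strand): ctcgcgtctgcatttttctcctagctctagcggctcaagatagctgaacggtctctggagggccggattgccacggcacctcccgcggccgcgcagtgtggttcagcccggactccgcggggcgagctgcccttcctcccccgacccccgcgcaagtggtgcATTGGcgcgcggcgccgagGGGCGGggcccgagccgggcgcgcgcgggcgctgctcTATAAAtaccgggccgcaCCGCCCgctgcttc
POLR2A (chr17:7484116-7484365, plus strand): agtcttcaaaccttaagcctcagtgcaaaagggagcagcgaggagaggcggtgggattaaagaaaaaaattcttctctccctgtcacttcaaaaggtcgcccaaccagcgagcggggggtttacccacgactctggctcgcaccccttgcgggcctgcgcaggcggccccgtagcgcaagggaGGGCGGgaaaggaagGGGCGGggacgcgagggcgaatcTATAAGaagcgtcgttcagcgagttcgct
EIF4A1 (chr17:7572575-7572824, plus strand): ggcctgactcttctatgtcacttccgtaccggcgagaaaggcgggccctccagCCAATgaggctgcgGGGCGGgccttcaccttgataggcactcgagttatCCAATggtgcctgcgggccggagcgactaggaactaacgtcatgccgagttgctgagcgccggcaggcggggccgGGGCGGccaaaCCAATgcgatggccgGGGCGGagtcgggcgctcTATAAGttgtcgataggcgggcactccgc
SPRY2 (chr13:80341127-80341376, minus strand): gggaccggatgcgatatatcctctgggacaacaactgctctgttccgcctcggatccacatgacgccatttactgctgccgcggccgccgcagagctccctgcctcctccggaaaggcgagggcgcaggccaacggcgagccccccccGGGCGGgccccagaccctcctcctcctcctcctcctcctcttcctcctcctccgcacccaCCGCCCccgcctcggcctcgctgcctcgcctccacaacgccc

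The POLR2A peaks lay mostly outside promoters, and the promoter share was higher in each tag range up to 10 to 19 tags and lower beyond it. The promoter class, within 2 kb of a start site, held 2509 peaks (17.9%, 95% Wilson interval 17.3 to 18.5). Upstream positions up to 20 kb held 1946 (13.9%), exons 648 (4.62%), introns 3875 (27.6%) and intergenic positions 5049 (36.0%). The share at promoters was 12.3% (11.7 to 13.1) among 8745 peaks of 4 tags, 20.2% (18.7 to 21.7) at 5 tags and 33.5% (31.4 to 35.7) at 6 to 9 tags. It was 43.4% (38.4 to 48.5) among 362 peaks of 10 to 19 tags, 37.5% (30.2 to 45.4) at 20 to 49 and 21.5% (13.9 to 31.8) among the 79 peaks of 50 or more. Across the same tag ranges the intergenic share was 39.8%, 34.5%, 24.2%, 22.1%, 21.1% and 36.7%, so the peaks with most tags again lay more often between genes. These ranges were chosen with the values known, and the intervals cover counting error only.

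**Figure D1:**
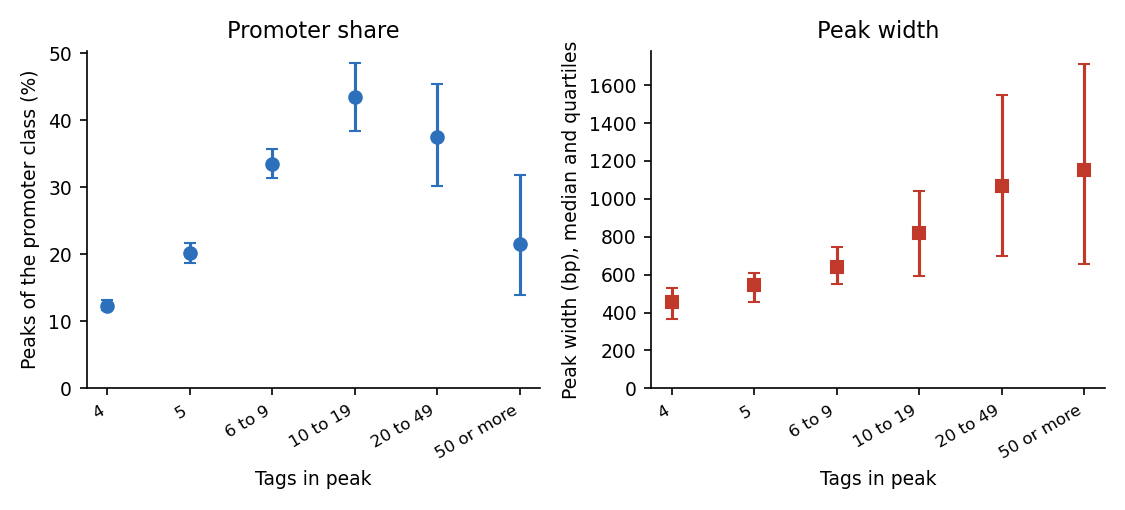
Left, the percentage of POLR2A peaks in the promoter class by the number of tags in the peak, with 95% Wilson intervals; right, the median peak width in bp with its quartiles. The promoter share is highest, at 43.4%, in peaks of 10 to 19 tags, and the median width runs between 453 bp at 4 tags and 1151 bp at 50 or more.

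The tag counts behind the list were low. The fewest tags in a peak were 4, the median was 4, and 593 peaks (4.23%) held 10 or more. Peaks of 4 or 5 tags held 56.8% of the 86228 tags in peaks, and the 10 peaks with most tags held 9.58%. A count of 4 tags has an exact Poisson interval of 1.09 to 10.2, so small peaks cannot be ranked by tags. The total depth of the POLR2A and input libraries is unknown, and the table gives no input tag count for a peak.

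Promoter peaks were somewhat wider than the rest. Their median width was 541 bp (quartiles 438 to 638), against 520 bp in exons, 500 bp upstream, 487 bp in introns and 481 bp between genes. Width followed the tag count, with a median of 453 bp at 4 tags, 642 bp at 6 to 9 and 820 bp at 10 to 19. Across all 14027 peaks Spearman's rho of tags with width was 0.52, and of tags with fold enrichment 0.21. Width and fold enrichment ran in opposite directions, with a rho of -0.25. All 3 quantities come from the same tags of 1 library. Fold enrichment differed little between classes, with medians of 24.9 at promoters, 23.7 upstream, 24.8 in exons, 24.4 in introns and 24.9 between genes. The median summit position was near the middle of the peak in every class, and 49.9% of the width over all peaks (quartiles 38.8% to 60.5%). It was counted from the lower coordinate and not in gene direction, so summits towards either end can balance in the median.

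The summits of promoter peaks gathered just downstream of the start site. The median summit lay 68.0 bp downstream (95% order-statistic interval 55.0 to 79.0), with quartiles at -184 and 353 bp. Of the 2509 summits, 1487 (59.3%, 57.3 to 61.2) lay downstream of the start and 1241 (49.5%) within 250 bp of it. The first 100 bp after the start held 343 summits (13.7%) and the next 100 bp held 318 (12.7%), against 225 (8.97%) in the 100 bp before the start. Peaks of 10 or more tags had their median summit at 137 bp (88.0 to 168), and 68.8% (62.6 to 74.5) of their summits lay downstream. By orientation, summits at protein-coding genes on the minus strand lay at a median of 90.0 bp (65.0 to 110, n = 994), and those on the plus strand at 41.0 bp (14 to 61.0, n = 1025). The cause of this offset was not tested.

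**Figure D2:**
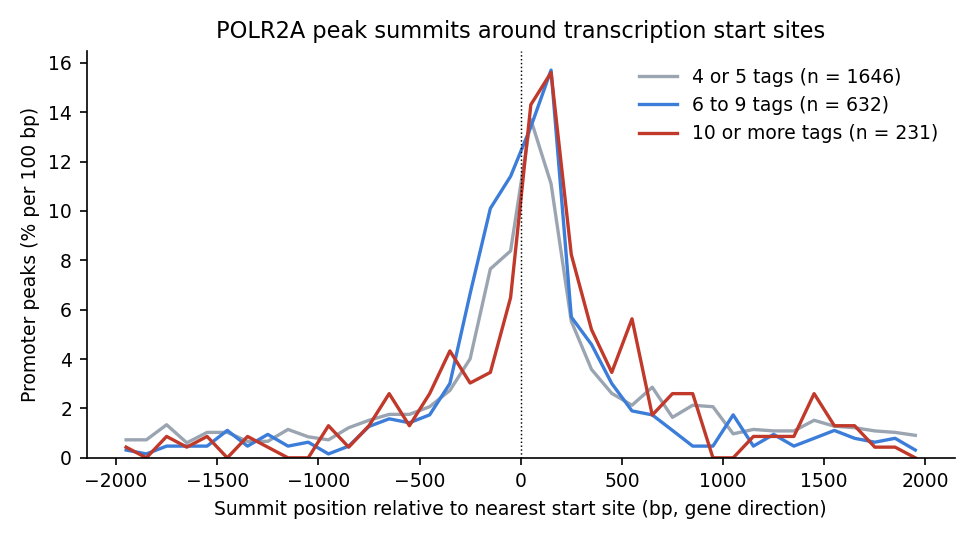
The percentage of promoter-class POLR2A summits in each 100 bp bin, by distance in bp to the nearest start site in the direction of the gene, for peaks of 4 or 5, 6 to 9 and 10 or more tags. All 3 lines are highest within 200 bp downstream of the start, and the line of 10 or more tags lies lowest in the 100 bp before it, at 6.49%.

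Protein-coding genes took 2019 promoter peaks (80.5%), with a median summit at 63.0 bp (49 to 76.0). Long noncoding RNA genes took 218 (8.69%) with a median at 9.0 bp (-74.0 to 78.0), and microRNA genes 115 (4.58%) with a median at 62.0 bp (-63.0 to 259), and both intervals hold the protein-coding median. The 49 peaks at small nucleolar RNA genes had their median summit at 444 bp (168 to 799). Such genes often lie within host genes, so the nearest start need not be the one in use. In 600 promoter peaks (23.9%) the authors' rows named more than 1 gene, and in 360 of these the starts diverged on opposite strands.

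In all, 1902 of 20056 protein-coding genes (9.48%) were the nearest gene of a promoter peak, and 143 (0.713%) had one of 10 or more tags. Of the 1902 genes, 389 (20.5%) also had an exon or intron peak, against 2315 of the 18154 others (12.8%). The median gene length in a later RefSeq annotation was 25750 bp in the first set and 24015 bp in the others, and length was not matched. By chromosome, promoter peaks were found at 13.5% of protein-coding genes on chromosome 17 and 12.1% on chromosome 2, the highest shares, and at 4.60% on the X chromosome, the lowest of the 22 autosomes and X.

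Of all 2509 promoter peaks, 231 (9.21%) had 10 or more tags, and 73 of these 231 overlapped a Flag-USP39 peak. By name families, chosen after the values were seen, 33 of the 231 (14.3%) were at histone genes and 28 (12.1%) under microRNA names. Small nucleolar or Cajal body RNA genes had 14 (6.06%), keratin genes 10 (4.33%) and spliceosomal small nuclear RNA genes 7 (3.03%). HOX genes had 5 (2.16%) and ribosomal protein genes 4 (1.73%). Of the 28 peaks under microRNA names, 8 were of MIR7641-2, with fold enrichments of at most 10.4. The names also take in long noncoding RNA genes such as MIR663AHG and MIR205HG. By RefSeq kind, 15 promoter peaks of this size were at microRNA genes. Peaks of this size made up 58.9% of the 56 histone promoter peaks and 40% of the 25 at keratin genes. They made up 29.4% of the 17 at HOX genes and 25.5% of the 55 at small nucleolar or Cajal body RNA genes. Of the 130 under microRNA names they were 21.5%, and of the 40 at ribosomal protein genes 10.0%. The linker histone gene HIST1H1D had 40 tags (exact Poisson interval 28.6 to 54.5) and a fold enrichment of 91.5 at chr6:26233814-26235357. HIST1H4J, a histone H4 gene, had 19 tags (11.4 to 29.7) with its summit 108 bp after the start. Reads of near-identical histone copies may be split between them, which leaves the values of single members uncertain.

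All 7 promoter peaks at spliceosomal small nuclear RNA genes held 10 or more tags, with a median fold enrichment of 74.8. RefSeq also counts SNAR-A3 and SNAR-B2 as small nuclear RNA genes, which are not spliceosomal, and their promoter peaks had 8 and 4 tags. RNU12, the U12 RNA gene of the minor spliceosome, had 26 tags (17 to 38.1) at chr22:43010864-43011680, and RNU11, its U11 partner, had 29 (19.4 to 41.6). RNVU1-20, a variant U1 gene, had 23 tags at chr1:149605492-149606522 and a fold enrichment of 106.5. RNAs made by RNA polymerase III were also among the listed names. RPPH1, the RNA of ribonuclease P, had 51 tags (38.0 to 67.1), and RMRP, the RNA of its mitochondrial RNA processing relative, had 34 (23.5 to 47.5).

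Keratin genes, which encode the filaments of epithelial cells, had 10 of their 25 promoter peaks at 10 or more tags, against 231 of all 2509. KRT14, a basal epidermal keratin, had 36 tags (25.2 to 49.8) at chr17:39742243-39743229, and its partner KRT5 had 35 (24.4 to 48.7) at chr12:52913471-52914214. KRT85, a hair keratin, had 14 tags and a fold enrichment of 99.8, and another of its peaks, outside the promoter class, had 47. The median summit of the 25 keratin promoter peaks lay 387 bp after the start, against 68.0 bp for all promoter peaks. Of these 10 keratin peaks 9 overlapped a Flag-USP39 peak, against 73 of all 231 of this size, and the part of the shared input in them was not tested. HOXB7 had 37 tags (26.1 to 51.0) across 2932 bp, HOXB6 had 25 and HOXB8 had 15, and none of the 5 HOX peaks of this size overlapped one.

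Of 12 genes set as markers of ovarian carcinoma, 1 had a promoter peak (8.33%, 1.49 to 35.4), WFDC2 with 4 tags, which is near the 9.48% of all protein-coding genes, and 6 had a peak of any class. KRT7 and KRT18, keratins of simple epithelia, had no peak, and KRT8 had an intronic one of 4 tags. Among 6 mesenchymal markers VIM, the gene of vimentin, had a promoter peak of 6 tags at chr10:17270106-17270936. Another promoter peak close by, at chr10:17271158-17272894, was named for VIM-AS1 and had 25 tags and 82.6-fold enrichment. No promoter peak was found at 14 markers of blood, liver, muscle and nervous tissue, which allows a share of up to 21.5% and so includes the 9.48% of all protein-coding genes. A peak of any class was found at 3 of the 14. The share of all protein-coding genes with a peak of any class was not counted. The any-class counts of the ovarian and other markers therefore cannot be judged against it. A peak is occupancy in 1 library and not expression, and at this depth a missing peak does not show that a gene was free of polymerase.

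The promoter peaks with the highest fold enrichment were a mixed set. CASC4 came first, with 63 tags (48.4 to 80.6) and a fold enrichment of 481 at chr15:44580547-44580964. A peak named for MIR6766, whose neighbours include POLG, the mitochondrial DNA polymerase gene, had 48 tags and 323-fold enrichment. COL6A1, a chain of collagen VI, had 44 tags and 225-fold enrichment at chr21:47400444-47401099, and PAXBP1 had 25 tags and 208-fold. DDX11L1 at chr1:9916-10557 had 279 tags and LOC102723376 at chr18:9940-10491 had 96, both close to the first base of their chromosomes. C8orf31 (17 tags), C12orf57 (36), WDR74 (111) and BAIAP2L2 (15) completed the highest 10, with fold enrichments between 108 and 142. All 10 overlapped a Flag-USP39 peak, against 73 of the 231 promoter peaks of 10 or more tags. None of the leading 10 of the whole list by fold enrichment was at a promoter. The POLR2A and Flag-USP39 lists share 1 input, and its part in these values was not tested.

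Among promoter peaks that overlapped no Flag-USP39 peak, an order made after the values were seen, POLR2A itself came after RNVU1-20, RNU12, HIST1H4K, HIST2H4A, MIR6077 and RNU11, whose fold enrichments ran between 89.6 and 106.5. POLR2A had 20 tags (12.2 to 30.9) and a fold enrichment of 86.4 at chr17:7387470-7388336, with its summit 38 bp after the start. MEIS1, a homeobox gene, had 17 tags (9.90 to 27.2) and 83.2-fold enrichment at chr2:66661688-66662756. STT3B, which encodes a catalytic subunit of oligosaccharyltransferase, had 9 tags and 63.0-fold enrichment with its summit 128 bp before the start.

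The promoter peaks with most tags differed from those with the highest fold enrichment, and both orders shared DDX11L1, LOC102723376 and WDR74. LINC00273 had 275 tags (243 to 309) but a fold enrichment of 6.59, MIR3687-2 had 192 tags and 5.94, MIR6087 had 116 and 9.82, and MIR663B had 101 and 12.2. Of the 17 promoter peaks of 50 or more tags, 6 had a fold enrichment below 15, a limit chosen after the values were seen. SNORD141A had 181 tags at chr9:135894747-135896561 and RPS29 had 150 at chr14:50052902-50054023. In the RefSeq gene table the neighbours of these names were EEF1A1P5, a pseudogene copy of an elongation factor gene, and RN7SL1, the RNA of the signal recognition particle. Likewise GSTA4, with 136 tags (114 to 161), neighboured RN7SK, and WDR74 neighboured RNU2-2, a U2 gene. The nearest annotated start therefore does not show which gene the tags came from.

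**Figure D3:**
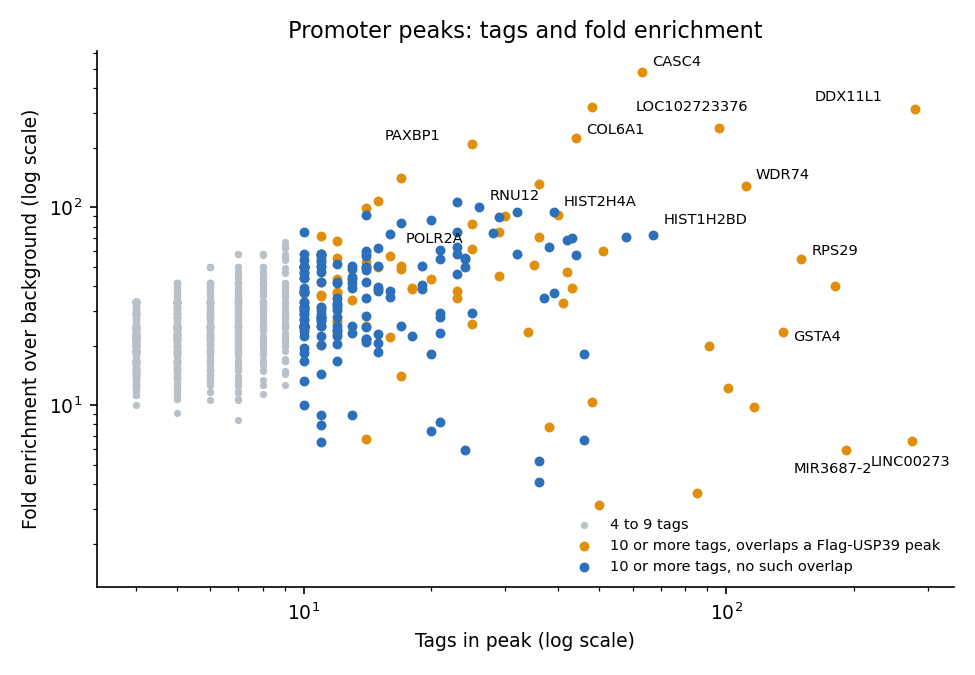
Fold enrichment over background against the number of tags for promoter-class POLR2A peaks on chromosomes 1 to 22 and X, both on log scales; orange and blue points are peaks of 10 or more tags with and without an overlapping Flag-USP39 peak. CASC4 and DDX11L1 lie at the top, at 481-fold and 314-fold, while LINC00273 and MIR3687-2 hold many tags at 6.59-fold and 5.94-fold.

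The promoter peaks of 10 or more tags also held many single genes of broad function, named here after their values were seen. UBB, which encodes ubiquitin, had 16 tags and a fold enrichment of 56.7. JUND, an AP-1 subunit gene, had 15 tags, TOB1 had 14, TRIM28, which encodes a corepressor, had 13, and DDIT3, a stress-response factor gene, had 12. DNMT1, the maintenance DNA methyltransferase gene, had 11, and SETDB1, a histone H3 methyltransferase gene, and UBTF, a factor of ribosomal RNA transcription, had 10 each. All of these counts are small enough that their order is uncertain.

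Outside promoters the peaks with most tags were of several kinds, ordered here by class and tags. Upstream of LOC101927914 a peak of 387 tags at chr7:157253828-157254439 had the highest fold enrichment of the list, 1465. The intronic peaks of ADAMTSL2, with 128 tags, and of ANAPC7, an anaphase-promoting complex gene, with 124, had fold enrichments of 474 and 1008. In exons MALAT1 came first, and GJA1, the connexin 43 gene, had 128 tags and 42.9-fold enrichment at chr6:121767975-121770881. Between genes, the peak with the most tags of all, 1938, lay at chr5:9905-11898, again near the first base of a chromosome, and was assigned to PLEKHG4B with a centre at -129471 bp from its start. The peaks assigned to EMBP1 and LINC00680 had 1296 and 1023 tags but fold enrichments of 6.48 and 1.73, and 1.73 was the lowest in the list.

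Promoter sequences were next read for the genes with a peak. A TATAAA element was found in 29.6% (22 to 38.5) of 115 promoters whose gene had a peak of 10 or more tags, against 9.35% (6.92 to 12.5) of 417 with 6 to 9 tags, 6.55% (5.22 to 8.20) of 1068 with 4 or 5 tags, and 9.63% (9.18 to 10.1) of all 15843 protein-coding promoters in the table. Histone genes made up much of this. Without them 14.9% (8.95 to 23.9) of 87 promoters at 10 or more tags held the element, an interval that holds the 9.63% of all promoters. Among histone promoters 21 of 28 at that level held it (75%), and so did 44 of 66 whatever their tags (66.7%). The element stood on the gene strand between 40 and 15 bases before the start in 22.6% (15.9 to 31.1) of promoters at 10 or more tags, and in 3.64% of all promoters. Without histone genes it stood there in 9.20% (4.73 to 17.1) of promoters at 10 or more tags. Sequences are those of RefSeq, build GRCh38.p14. They ran from 250 bases before to 50 after the start and were searched on both strands, and matches of different motifs may overlap.

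CCAAT was present in 55.7% (46.5 to 64.4) of promoters at 10 or more tags, in 47.1% (37.0 to 57.5) once histone genes were left out, and in 36.4% of all promoters. The GC box GGGCGG was in 68.4% (66.1 to 70.6) of all promoters with a peak and 58.5% of the whole table, but at 10 or more tags it was in 56.5% (47.4 to 65.2), and in 65.5% (55.1 to 74.7) without histone genes. The ETS motif CCGGAAG was in 19.7% (17.8 to 21.7) of promoters with a peak, against 14.2% of the table. At 10 or more tags it was in 12.2% (7.39 to 19.4), and without histone genes in 14.9% (8.95 to 23.9). The E-box CACGTG, the CRE TGACGTCA and the palindromic NRF1 motif were in 9.94%, 3.12% and 2.56% of promoters with a peak, against 8.88%, 2.59% and 1.75% of the table. At 10 or more tags they were in 6.96%, 6.09% and 0.870%. Once histone genes were left out, these shares were 9.20%, 2.30% and 1.15%. The CRE was then in 2 of 87 promoters, a share no higher than the 2.59% of the table. TATAAG, a spelling added after the sequences were seen, was in 13.0% (8.07 to 20.4) at 10 or more tags and 4.64% of the table. Without histone genes it was in 8.05% (3.95 to 15.7), an interval that holds the value of the table. Base composition also differed, with a median GC content of 65.2% in promoters with a peak and 62.7% in all promoters. At 10 or more tags the median was 58.3%, and 62.3% without histone genes. The part of base composition in the motif shares was not tested.

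**Figure D4:**
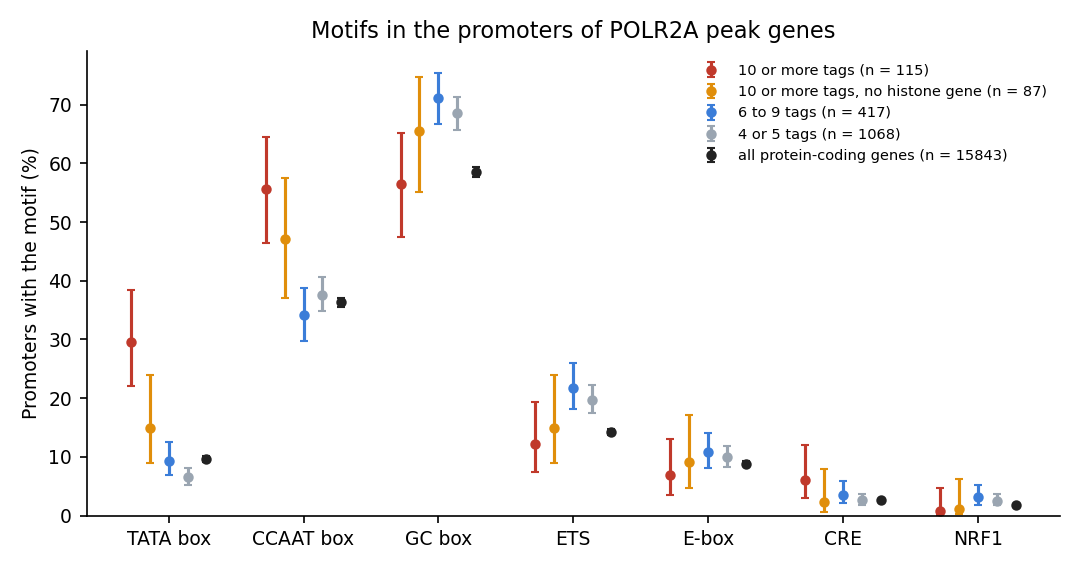
The percentage of RefSeq promoters that hold each motif on either strand, with 95% Wilson intervals, by the tags of the gene's POLR2A promoter peak, with all protein-coding promoters last. The TATA box was found in 29.6% of promoters at 10 or more tags, in 14.9% without histone genes and in 9.63% of all promoters.

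In HIST1H1D, HIST1H4J and MAT2A the TATAAA began 30, 31 and 32 bases before the start. MAT2A, the gene of an enzyme that makes S-adenosylmethionine, had 11 tags (5.49 to 19.7) and 58.2-fold enrichment at chr2:85765937-85766527. POLR2A and EIF4A1, the gene of a translation initiation helicase, each had TATAAG beginning 29 bases before the start, and EIF4A1 had 14 tags (7.65 to 23.5) with its summit at 86 bp. SPRY2, an inhibitor of receptor tyrosine kinase signalling, had 2 GC boxes and no TATA spelling among those searched. It carried 4 promoter peaks, of 8, 7, 4 and 4 tags. A match is a run of letters and not a shown binding site.

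Genes of the transcription machinery and of basic metabolism were then counted, beside 9.48% of all protein-coding genes with a promoter peak. Of 12 polymerase II subunit genes 3 had one, POLR2A with 20 tags, POLR2G with 5 and POLR2B with 4. General transcription factors had 6 of 31, among them GTF2A1 of TFIIA and TAF9 of TFIID with 7 tags each, and ERCC3, a TFIIH helicase, with 6. Pausing and elongation factors had 2 of 24, CDC73 of the PAF complex with 8 tags and HEXIM1, which inhibits the elongation kinase P-TEFb, with 5. Mediator had 2 of 30, MED17 and MED18 with 4 tags each. With so few members these shares have wide intervals, 8.89% to 53.2% for the subunits and 9.19% to 36.3% for the general factors. Both intervals hold the 9.48% of all protein-coding genes.

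Cytoskeletal and translation genes had the highest shares. Promoter peaks were found at 12 of 27 cytoskeletal genes (44.4%, 27.6 to 62.7). Their best promoter peaks held 12 tags at ACTB and 9 at ACTG1, the cytoplasmic actins, and 8 at the tubulin genes TUBB6 and TUBB4B. The ACTB and ACTG1 summits lay 1352 and 1507 bp after the start. Outside the promoter class both genes had larger peaks, of 70 and 36 tags. With start sites within 1 kb, 10 of the 27 genes had a promoter peak. Translation factors had 10 of 31 (32.3%, 18.6 to 49.9), led by EIF1 with 15 tags (8.40 to 24.7), EIF4A1 with 14, EEF1A1 with 11 and EIF4A2 with 8. Near the EEF1A1 peak on chromosome 6, promoter peaks of 30 and 23 tags were named for SNORD141A. Glycolysis had 5 of 18 (27.8%, 12.5 to 50.9), led by GAPDH with 8 tags, and PFKP, TPI1 and GPI had 4 each. The respiratory chain had 6 of 30, SDHC with 7 tags among them and CYC1 with 6. Replication genes had 4 of 28, POLD1 of DNA polymerase delta with 8 tags and MCM6 with 5 among them. The proteasome had 4 of 31, PSMC5 with 8 tags, PSMA4 with 7 and PSMA1 with 6 among them. None of 34 taste receptor and beta-defensin genes had a promoter peak. The upper bound was 10.2%, which includes the 9.48% of all protein-coding genes.

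Most peaks stood alone, and those in groups lay more often at promoters. Peaks were joined where no more than 5 kb separated neighbours. Intervals of 3 or more peaks numbered 182 and held 698 peaks (4.98%), of which 38.7% (35.1 to 42.3) were promoter peaks and 19.1% had 10 or more tags. Intervals of 2 peaks numbered 609, with 25.4% (23 to 27.9) at promoters and 6.90% at 10 or more tags. The 12111 peaks that stood alone had 15.9% (15.3 to 16.6) at promoters and 3.10% at 10 or more tags. A promoter peak was present in 119 of the 182 intervals.

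The interval with most peaks covered NEAT1, the scaffold RNA of paraspeckles. It held 16 peaks between 65186221 and 65212902 of chromosome 11, 14 of which were named for MIR612, which neighbours NEAT1 in the gene table. One of the peaks was 4584 bp wide with 91 tags (73.3 to 112), and the other 15 held 4 to 13. The interval named for MIR7641-2 and the pseudogene DUSP5P1 held 14 peaks of 11 to 48 tags over 37507 bp of chromosome 1. Its fold enrichments were only 5.21 to 10.4, and DUSP5P1 neighbours 5S ribosomal RNA genes, which RNA polymerase III transcribes.

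At TBX2, a T-box repressor gene, 11 peaks covered 12501 bp of a span of 21680 bp, and 8 of them were classed as upstream. The peak with most tags there was named for C17orf82, with 58 tags (44.0 to 75) and 71.1-fold enrichment at chr17:59486340-59488876. The HOXB3 to HOXB5 stretch held 10 peaks of 4 to 13 tags, 7 of them at promoters. DDX17, an RNA helicase gene, had 7 peaks of 4 to 24 tags, all in exons and introns and none at its promoter.

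Gene bodies also gave the widest peaks. MALAT1, a nuclear noncoding RNA gene, had a peak of 8044 bp and 1722 tags (1642 to 1805). AHNAK, which encodes a very large scaffold protein, had peaks of 5654 bp with 123 tags (102 to 147) and of 4072 bp with 107 (87.7 to 129). Both were classed as intronic on the transcript row kept, and their class on other transcripts was not examined. The AHNAK peaks belonged to an interval of 6 peaks that covered 17568 of 18176 bp. A peak of 4059 bp with 121 tags (100 to 145) was assigned upstream of SNRNP48, whose neighbour in the gene table on that side is DSP, the desmoplakin gene.

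**Figure D5:**
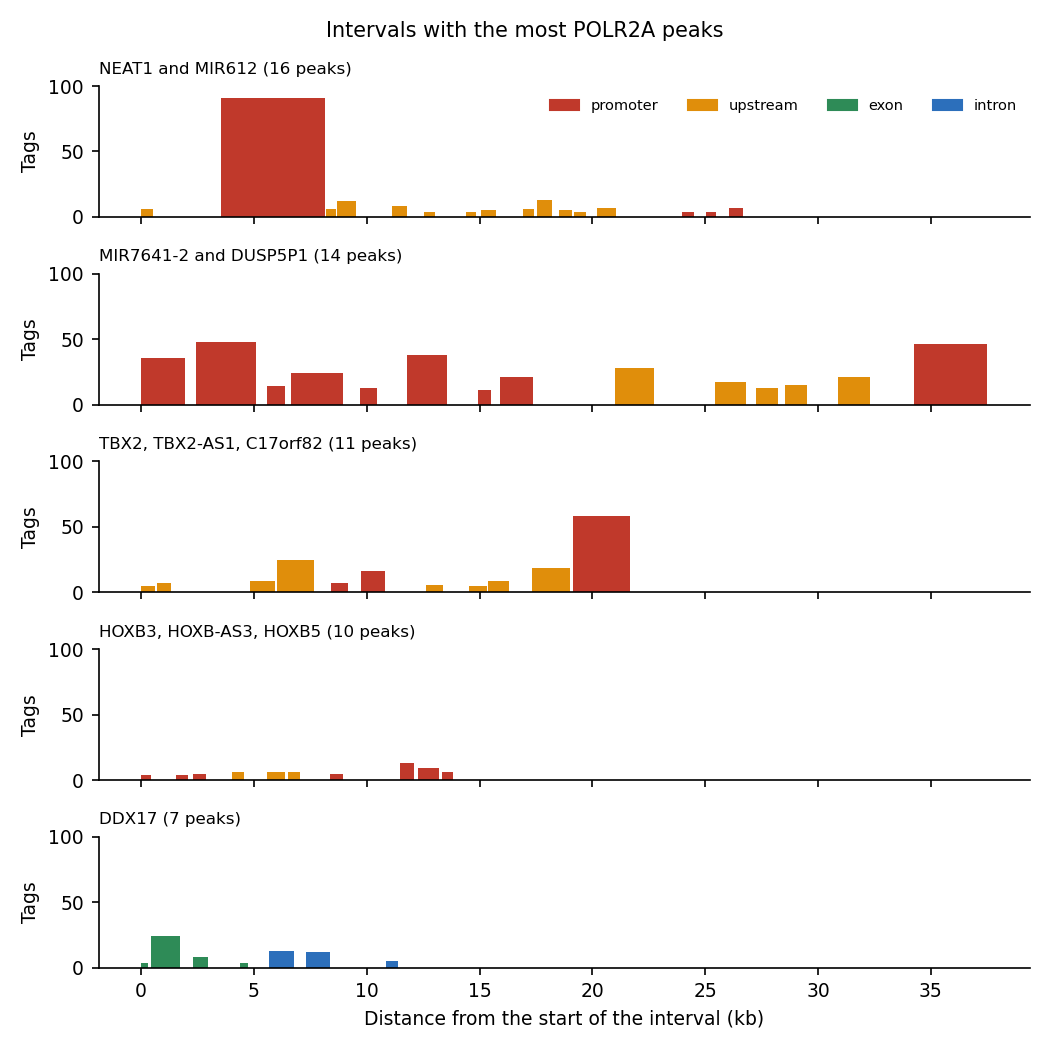
Peaks of the 5 intervals with most POLR2A peaks, by distance from the start of the interval in kb; each bar is a peak, as wide as the peak and as high as its tag count, coloured by class. In the NEAT1 interval 1 peak of 91 tags stands beside 15 of 4 to 13, and the MIR7641-2 interval holds 11 to 48 tags throughout.

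Several promoter peaks under 1 gene name were uncommon, and such peaks need not share a start site. Of 2340 gene names with a promoter peak, 2192 had 1, 134 had 2, and 14 had 3 or more. MIR7641-2 had 8, with 11 to 48 tags, and SPRY2 and MEIS2 had 4 each. The 4 peaks of MEIS2, another homeobox gene, held 5, 5, 6 and 4 tags, so none could be ranked above another. SNORD141A had 3, but they lay on chromosomes 6 and 9, so the name joins 2 loci. HOXB-AS1 had 3, of 5, 4 and 11 tags. With peaks of every class counted, EFNA5, the gene of ephrin-A5, was named by most peaks, 39 with at most 9 tags each, 1 of them at a promoter.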

How the data were processed

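One POLR2A library and 1 input of A2780 cells were used. The tools include Bowtie2 2.2.4 and MACS 1.4.3, and positions are on hg19, per the submitters' processing notes. For duplicate handling, library totals and the annotation, nothing is stated in the sources used. The deposited tag counts are whole tags in a peak, not normalized, per the file headers. The deposited fold enrichment is a ratio to the caller's background, the score that the authors deposited is the negative log10 of a p-value times 10 (3100 at most), and the deposited FDR is in percent (0.26% at most), per the file headers. Widths, summits and start sites are in bp.

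The 27766 annotation lines of the authors' table gave 14027 peaks. Each kept the line with the smallest distance to a start site, the first in the file where tied (163 peaks had different genes tied). The lowest score was 40, a p-value of 1e-04. Start sites in the table gave summit distances. Of 9136 transcripts, 9095 matched a RefSeq gene table of GRCh38.p14, used for names, kinds, lengths and neighbours. Of 1902 protein-coding genes with a promoter peak, 1600 had a promoter sequence. Python 3.11.15, pandas 2.3.3 and scipy 1.17.1 were used. Peak choice, joining and motif search were tested on simulated data.

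Genes named were those of the 10 promoter peaks with the highest fold enrichment and the 10 with most tags, the 5 widest peaks, the 5 intervals with most peaks, the 5 genes with most promoter peaks, POLR2A, and up to 4 members of each gene list. Other names were chosen after their values were seen. The peaks, lists and rules were chosen with earlier results of these data known. Alternatives were a p-value of at most 1e-10, 10 or more tags, another choice of row, distance or gap, and a narrower motif window.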

Additional observations from a re-analysis of the deposited data

How the results depend on the processing

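No paired analysis was possible because each group had 1 library, and no replicate could be left out. Keeping only peaks with a p-value of at most 1e-10, or with 10 or more tags, left far fewer peaks. The promoter share was then 38.3% and 39.0%, against 17.9% of all peaks, and the median width 784 and 892 bp, against 497 bp. The median tag count was 15 under both, against 4.0, and the median summit lay at 49.9% of the width at a p-value of at most 1e-10. Intervals of 3 or more peaks numbered 7 and 9, against 182, genes with a promoter peak 127 and 143, against 1902, and list members with one 5 and 5, against 56. The median summit distance was 137 bp at 10 or more tags, against 68.0 bp. Start sites within 1 kb took 14.6% of peaks. Intervals numbered 94 with a gap of at most 2 kb and 450 with 20 kb. TATAAA was in 8.94% of promoters with a peak, in 5.12% on the gene strand from 40 to 15 bases before the start, in 29.6% at 10 or more tags and, in an alternative chosen after seeing the data, in 14.9% of these without histone genes. Any promoter row in place of the nearest gave 2231 genes and 61 list members. Counts of genes, list members and intervals fall with fewer peaks, and the narrower window can only lower the TATAAA share, by construction; for the other differences the cause was not tested. With 4 tags in the median peak, ranks among small peaks and the absence of a peak carry little information.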
